A study of Mus musculus with 16 samples.

Results

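The liver breaks down tryptophan along the kynurenine route, and 9 genes of that route and of its nicotinamide outlet were followed here: Tdo2, Ido2, Afmid, Kmo, Kynu, Haao, Acmsd, Qprt and Nnmt. The Ensembl identifiers of the deposited table were matched to these symbols in the GRCm38 annotation. The genes were chosen by name for their place in the pathway, with earlier results of these data known. They make up 9 of the 55487 rows of the table, and all 9 were among the 11839 genes with a mean of at least 1 TPM, the unit of transcript abundance of the table, that were tested. TPM stand for read counts divided by exon length and brought to 1 common total in every library, so each value is a share of its library.

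Livers of 16 male C57BL6/J mice were profiled by RNA sequencing, with 4 mice per group and a library for each. Per the sample records lean mice 10 weeks old were put on a 60 kcal% high-fat diet for 8 weeks, and were then given a study diet and vehicle or G108, a long-acting peptide agonist of the glucagon receptor. G108 was injected under the skin at 2.5 nmol/kg daily for 22 days, and the mice were killed on day 25 after a 4 h fast. The paper gives another age, lead-in and end of study. On the study diets, SP stands for high fat with standard protein and HP for high fat with high protein, and each treatment was given with either diet, so all 4 groups shared the high-fat feeding, and no lean or chow-fed mice served as a reference. The mice were housed individually. The question put to the pathway was how its genes differed with G108 on each diet, and with protein supplementation at a given treatment.

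Most dietary tryptophan that is not used for protein is oxidised in hepatocytes. Tryptophan 2,3-dioxygenase opens the indole ring, formamidase releases kynurenine, and hydroxylation, cleavage and a further ring opening lead to aminocarboxymuconate semialdehyde. At that branch point the intermediate either closes by itself to quinolinate, from which NAD is built, or is decarboxylated by the Acmsd product and goes on to oxidation, while nicotinamide released from NAD is either salvaged by the Nampt product or methylated by the Nnmt product. Glucagon is known for raising amino acid catabolism in the liver.

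The tissue carried the markers of its label. The summed level of 7 hepatocyte markers lay between 27531 and 65107 TPM over all libraries, against 29.4 to 111 TPM for 8 Kupffer cell and macrophage markers, at most 2.60 TPM for lymphocyte markers and at most 1.99 TPM for adipocyte markers. From 27.8 to 45.03 M reads per library were recovered from the steps of the low values, and even Acmsd, the member with the fewest reads, was covered by 196 to 1387 reads in each library. In bulk tissue, fewer cells of a type and less RNA per cell cannot be told apart.

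One property of the table bears on every level below. TPM of G108 SP libraries were higher for most genes: the median gene differed from vehicle SP by 0.60 on the log2 scale, and the size factor that a median-of-ratios scaling assigns (log2) lay between 0.23 and 0.62 in G108 SP and between -0.55 and -0.05 in vehicle SP. The hepatocyte markers moved with it, from 27531 to 44601 TPM in vehicle SP to 47537 to 65107 TPM in G108 SP, and after median-of-ratios scaling they lay between 40442 and 46280 and between 39892 and 42367. The share of TPM taken by genes of the mitochondrial genome also differed, with medians of 16.1% in vehicle SP, 17.5% in vehicle HP, 19.0% in G108 SP and 24.2% in G108 HP. Each level is therefore given as TPM and each difference on both scales, where the scaled values set the median gene of every library to the same level. Whether the scale factors reflect composition of the RNA, total transcription or library preparation was not tested.

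Nnmt, Acmsd and Kynu were the members called higher with G108 on both scales when averaged over the diets. Averaged over the diets, the G108 difference in limma was 1.83 ± 0.24 (SE, log2, adjusted p = 0.0001) for Nnmt, 1.23 ± 0.20 (adjusted p = 0.0005) for Acmsd and 0.88 ± 0.18 (adjusted p = 0.0019) for Kynu on TPM. With median-of-ratios scaling the same differences were 1.39 ± 0.26 (adjusted p = 0.0047), 0.84 ± 0.19 (adjusted p = 0.0171) and 0.45 ± 0.12 (adjusted p = 0.0382). These 3 were the only members called in that averaged contrast with scaling, where 2.86% of all genes tested were called higher. On TPM 8 of 9 members were called, all but Ido2, where 61% of all genes were. With scaling and 1 library left out in turn, Nnmt and Acmsd were called in all 16 fits and Kynu in 5, those without mouse 1, 3 or 4 of vehicle SP, mouse 1 of G108 SP or mouse 2 of G108 HP, with differences between 0.34 and 0.51. The averaged contrasts were added after the data had been examined.

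**Figure D1:**
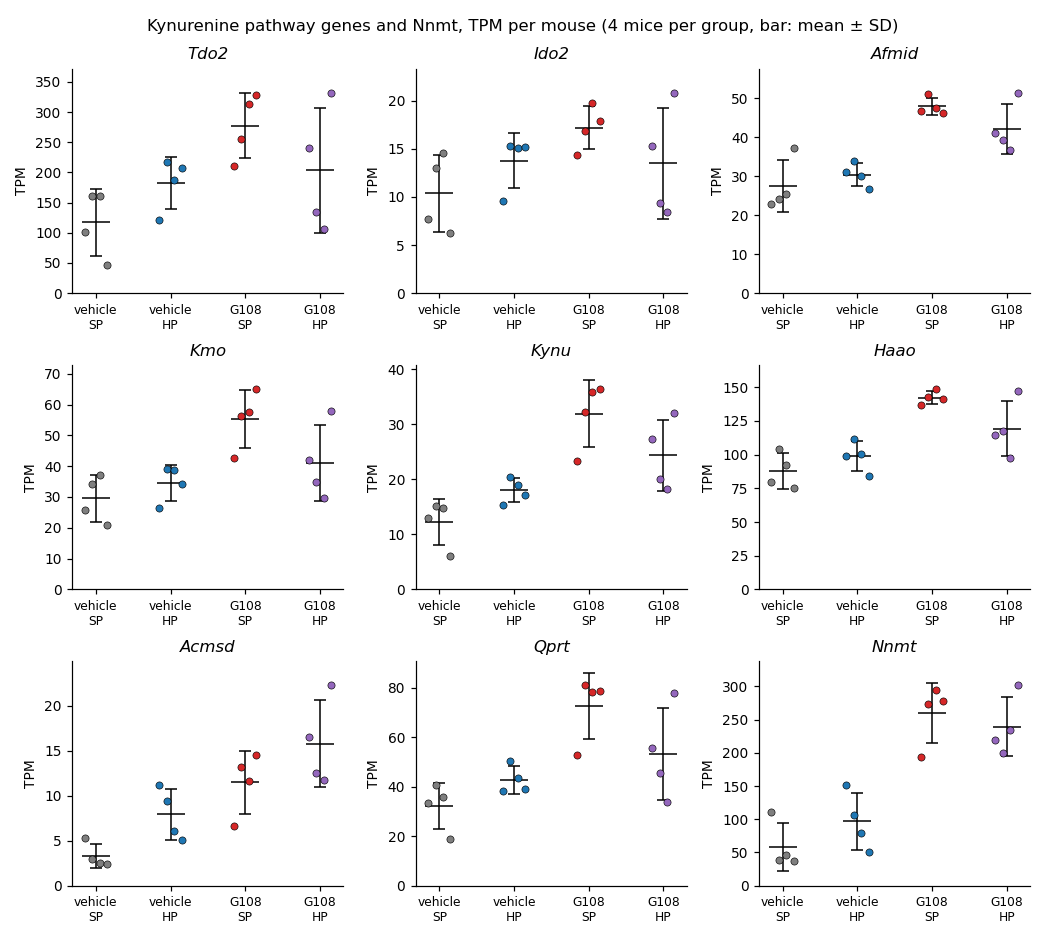
Level of each of the 9 genes in each mouse, in TPM, by group. Points are mice, and lines give the group mean with its standard deviation (n = 4). Nnmt in both G108 groups, from 194 to 302 TPM, lies above all vehicle mice (37.0 to 152 TPM), and Tdo2 spans 106 to 332 TPM within the G108 HP group alone.

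Entry into the pathway was examined first. Tdo2 (chromosome 3, 81957090 to 81976202, minus strand, GRCm38) encodes tryptophan 2,3-dioxygenase, the hepatic enzyme that commits tryptophan to the route. Its TPM were 101, 160.2, 161 and 46.3 in the vehicle SP mice, 121, 217, 188 and 207 in vehicle HP, 212, 256, 314 and 328 in G108 SP, and 241, 134, 106 and 332 in G108 HP. All G108 SP mice lay above all vehicle SP mice, while G108 HP overlapped every other group. The group means were 117 ± 55.1, 183 ± 43.2, 277 ± 53.8 and 203 ± 104 TPM (SD, n = 4). On SP the G108 difference was 1.37 ± 0.39 (log2, adjusted p = 0.0065), and with scaling 0.60 ± 0.29 (adjusted p = 0.304). On HP it was 0.04 ± 0.39 on TPM and -0.085 ± 0.29 with scaling, so that no direction was held by both scales.

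Ido2 (chromosome 8, 24531892 to 24576333, minus strand) encodes the second hepatic dioxygenase, of lower activity toward tryptophan. It was the least abundant of the entry enzymes, with means of 10.4 ± 3.99 TPM in vehicle SP, 13.8 ± 2.82 in vehicle HP, 17.2 ± 2.24 in G108 SP and 13.5 ± 5.76 in G108 HP. Vehicle SP reached 14.5 TPM and G108 SP started at 14.4 TPM, which made Ido2 the only member whose ranges touched in that comparison. Its difference on SP was 0.74 ± 0.28 (adjusted p = 0.0248) on TPM and 0.025 ± 0.18 with scaling, and the call on TPM was lost without mouse 1 or 4 of vehicle SP or mouse 3 or 4 of G108 SP (0.55 to 0.91 over all fits that left out 1 library). Ido1, its better known relative, was at most 0.041 TPM in any library and was not tested.

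Afmid (chromosome 11, 117825924 to 117839908, plus strand) encodes the formamidase that releases kynurenine. Means were 27.5 ± 6.65, 30.5 ± 2.95, 47.9 ± 2.22 and 42.2 ± 6.44 TPM (vehicle SP, then vehicle HP, then G108 SP, then G108 HP), and both G108 groups lay above the vehicle group of the same diet without overlap. The difference was 0.81 ± 0.16 (adjusted p = 0.0012) on SP and 0.45 ± 0.16 (adjusted p = 0.23) on HP, and with scaling it was 0.051 ± 0.18 and 0.33 ± 0.18. Reads of Afmid are uncertain, because Gm20708 covers 13981 bases of it on the same strand, had a mean of 60.3 TPM and followed it with r = 0.995 over the 16 libraries.

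The middle of the pathway held Kmo, Kynu and Haao. Kmo (chromosome 1, 175620381 to 175662116, plus strand) hydroxylates kynurenine, Kynu (chromosome 2, 43555329 to 43682715, plus strand) cleaves off alanine, and Haao (chromosome 17, 83831156 to 83847963, minus strand) opens the second ring. Kynu stood at 12.97, 15.2, 14.8 and 6.08 TPM in vehicle SP, 15.4, 20.5, 19.0 and 17.2 in vehicle HP, 23.4, 32.2, 35.9 and 36.5 in G108 SP, and 27.3, 20.0, 18.2 and 32 in G108 HP. Vehicle SP lay below each of the other groups without overlap. After scaling the 8 G108 values lay between 19.9 and 26.6 and the 8 vehicle values between 8.93 and 20.9, with G108 above vehicle without overlap within each diet. The difference was 1.37 ± 0.25 (adjusted p = 0.0009) on SP and 0.39 ± 0.25 (adjusted p = 0.623) on HP, and with scaling 0.63 ± 0.17 (adjusted p = 0.0651) and 0.27 ± 0.17 (adjusted p = 0.628).

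Kmo and Haao were called higher on SP on TPM and were not called after scaling. Kmo had means of 29.5 ± 7.50, 34.6 ± 5.93, 55.4 ± 9.37 and 41.1 ± 12.2 TPM, and Haao 87.9 ± 13.1, 98.9 ± 11.4, 142 ± 5.0 and 119 ± 20.5 TPM, in the same order of groups. For Kmo the SP difference was 0.90 ± 0.22 (adjusted p = 0.0034) on TPM and 0.15 ± 0.12 (adjusted p = 0.521) with scaling. For Haao it was 0.70 ± 0.15 (adjusted p = 0.0019) on TPM and turned to -0.071 ± 0.093 (adjusted p = 0.688) with scaling. Kmo overlaps Fh1 by 5255 bases on the opposite strand, and whether the counting used strand is not given in the sources used here.

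**Figure D2:**
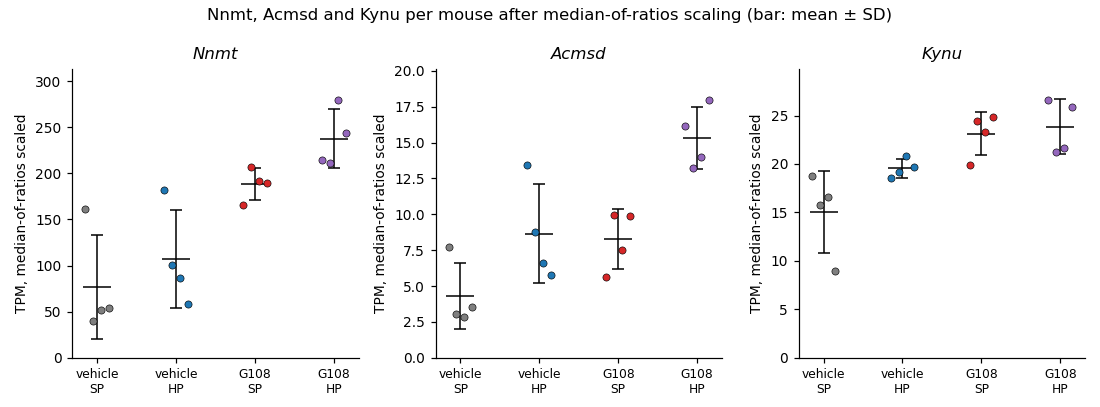
Levels of Nnmt, Acmsd and Kynu per mouse with libraries brought to a common level of their median gene by median-of-ratios factors (vertical axes in scaled TPM). Nnmt in G108 HP (211 to 280.0) and in G108 SP (165 to 207) lies above the vehicle mice of the same diet.

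At the branch point stood Acmsd and Qprt. Acmsd (ENSMUSG00000026348, chromosome 1, 127729413 to 127767978, plus strand) encodes the decarboxylase that takes the intermediate away from NAD synthesis. Its TPM were 5.33, 2.95, 2.51 and 2.41 in vehicle SP, 11.2, 9.37, 6.05 and 5.05 in vehicle HP, 6.60, 13.2, 11.6 and 14.5 in G108 SP, and 16.5, 12.5, 11.7 and 22.3 in G108 HP. Vehicle SP was the lowest group, with its mouse 1 alone reaching into the range of vehicle HP, and G108 HP was the highest. Its reads overlap an antisense gene, 2900009J06Rik, over 14363 bases (mean 5.08 TPM). The means were 3.30 ± 1.38, 7.92 ± 2.86, 11.5 ± 3.46 and 15.8 ± 4.82 TPM.

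For G108 against vehicle, Acmsd differed by 1.53 ± 0.28 (adjusted p = 0.001) on SP and by 0.93 ± 0.28 (adjusted p = 0.156) on HP, and with scaling by 0.87 ± 0.27 (adjusted p = 0.114) and 0.81 ± 0.27 (adjusted p = 0.211). The 2 scaled differences were of similar size, and their interaction in limma was -0.053 ± 0.38 (adjusted p = 0.953). On TPM the interaction was -0.61 ± 0.40 (adjusted p = 0.216). For HP against SP it differed by 1.04 ± 0.28 with vehicle (adjusted p = 0.727) and 0.43 ± 0.28 with G108 (adjusted p = 0.208), and with scaling by 0.89 ± 0.27 (adjusted p = 0.832) and 0.84 ± 0.27 (adjusted p = 0.804). After scaling the G108 HP mice, at 16.1, 13.3, 14 and 18, lay above the G108 SP mice, at 5.63, 9.98, 7.54 and 9.89, without overlap. Averaged over the treatments the diet difference was 0.74 ± 0.20 on TPM (adjusted p = 0.779) and 0.87 ± 0.19 with scaling (adjusted p = 0.387, unadjusted p = 0.0004), which did not pass the test, although only 12 of the 11839 genes had a higher scaled value.

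Qprt (chromosome 7, 127107114 to 127122226, minus strand) encodes the transferase that commits quinolinate to NAD. Its TPM were 33.4, 40.6, 35.8 and 18.8 in vehicle SP, 38.4, 50.5, 43.6 and 38.9 in vehicle HP, 52.6, 81.0, 78.0 and 78.5 in G108 SP, and 55.6, 45.5, 33.9 and 77.8 in G108 HP. G108 SP lay above both vehicle groups without overlap, and G108 HP overlapped every group. On SP the difference was 1.18 ± 0.26 (adjusted p = 0.0019) on TPM and 0.42 ± 0.16 (adjusted p = 0.199) with scaling, and on HP 0.25 ± 0.26 and 0.13 ± 0.16.

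The balance at the branch was read as a ratio within each library, which largely removes the scale of the library, though not for low genes, since 1 TPM was added to each gene. The log2 ratio of Acmsd to Qprt (each plus 1 TPM) was -2.44, -3.40, -3.39 and -2.54 in vehicle SP, -1.69, -2.31, -2.66 and -2.72 in vehicle HP, -2.82, -2.53, -2.65 and -2.36 in G108 SP, and -1.69, -1.78, -1.45 and -1.76 in G108 HP. With G108 the HP mice all lay above the SP mice, a difference of 0.92 (exact permutation p = 0.0286, two-sided, the smallest that 4 mice against 4 allow). The ratio of Haao to Acmsd was lower in the same comparison, by a log2 difference of -0.70 from a mean of 3.57 to 2.87, also without overlap and at the same exact permutation p. With 0.1 TPM added in place of 1, the differences were 0.96 and -0.74. G108 against vehicle gave overlapping ranges for both ratios on both diets. Adjusted over the 30 tests of 6 ratios in 5 contrasts, no ratio passed, the smallest adjusted p being 0.171.

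**Figure D3:**
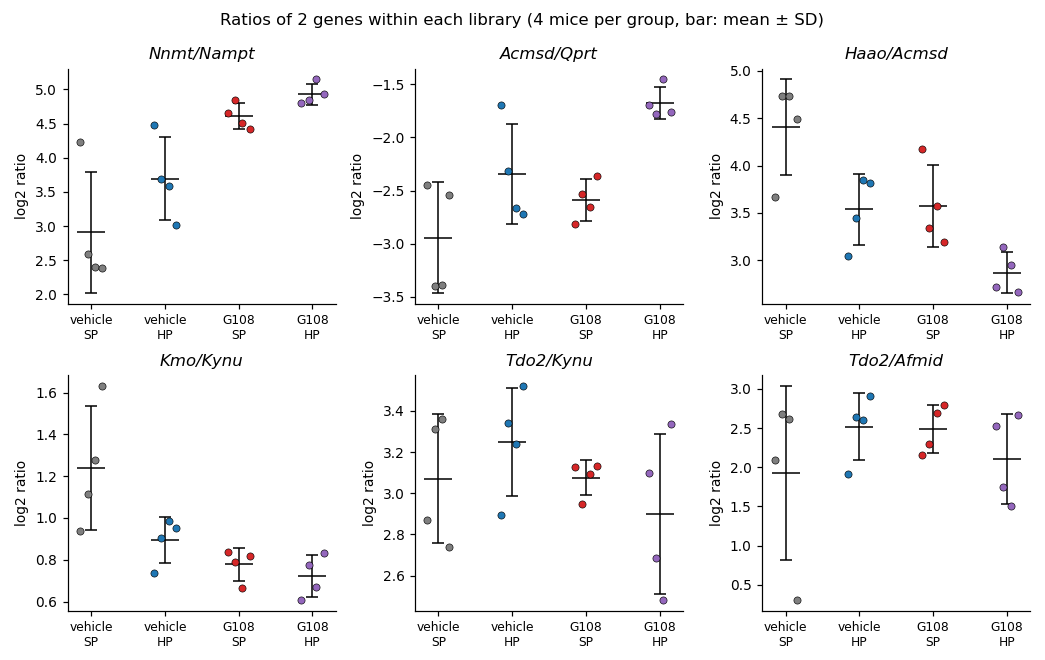
Log2 ratios of pathway genes within each library (each gene plus 1 TPM), by group, with points for mice and lines for group means. Nnmt/Nampt lies higher with G108 on both diets (means of 4.61 and 4.93 against 2.91 and 3.69), Acmsd/Qprt lies higher with HP within the G108 mice (-1.67 against -2.59), and no difference passed after adjustment over 30 tests.

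At the outlet, Nnmt (ENSMUSG00000032271, chromosome 9, 48591877 to 48605153, minus strand) encodes nicotinamide N-methyltransferase, which methylates nicotinamide for excretion. It gave the largest difference of the 9 genes in both G108 comparisons on both scales. TPM were 111, 38.3, 46.1 and 37.0 in vehicle SP, 152, 107, 78.8 and 50.7 in vehicle HP, 194, 274, 294 and 278 in G108 SP, and 219.9, 199, 235 and 302 in G108 HP. Every G108 mouse lay above every vehicle mouse, and the vehicle groups overlapped, with mouse 1 the highest in each. Means were 58.2 ± 35.7, 97.0 ± 43.0, 260.0 ± 45.0 and 239 ± 44.4 TPM.

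Nnmt rose by 2.28 ± 0.34 on SP (log2, limma adjusted p = 0.0004) on TPM and by 1.51 ± 0.37 (adjusted p = 0.0418) with scaling, where 24 of the 11839 genes had a higher scaled value. With 1 library left out in turn the call on TPM was made in all 16 fits and the scaled call in 4, those without mouse 1 of vehicle SP (1.94), mouse 1 or 4 of vehicle HP or mouse 1 of G108 SP, with scaled differences between 1.28 and 1.94. On HP the difference was 1.38 ± 0.34 (adjusted p = 0.0694) and with scaling 1.26 ± 0.37 (adjusted p = 0.141), so the call missed the threshold although the groups did not overlap. It passed without mouse 1 of vehicle HP (1.63) or mouse 1 of vehicle SP (1.38) on TPM, and with scaling without mouse 1 of vehicle SP (1.26). The interaction of G108 and diet was -0.90 ± 0.48 (adjusted p = 0.142) on TPM and -0.25 ± 0.52 (adjusted p = 0.828) with scaling. Between the G108 groups Nnmt differed by -0.12 ± 0.34 on TPM and by 0.33 ± 0.37 with scaling, where the direction turned, and between the vehicle groups by 0.78 ± 0.34 and 0.58 ± 0.37 (adjusted p = 0.727 and 0.832).

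Set against Nampt, the rate-limiting enzyme of nicotinamide salvage, Nnmt gave the largest differences with G108 among the ratios. The log2 ratio was 4.24, 2.60, 2.41 and 2.39 in vehicle SP, 4.48, 3.69, 3.59 and 3.01 in vehicle HP, 4.65, 4.85, 4.51 and 4.42 in G108 SP, and 4.79, 4.84, 5.15 and 4.93 in G108 HP. Each G108 group lay above the vehicle group of its diet, by 1.70 on SP and 1.24 on HP (exact permutation p = 0.0286 each, adjusted p = 0.171). Mouse 1 of each vehicle group came closest to the G108 mice, and the other vehicle mice lay at 3.69 or lower. Upstream, the ratio of Kmo to Kynu was lower with G108 on SP, from a mean of 1.24 to 0.78 without overlap (exact permutation p = 0.0286), and that of Tdo2 to Kynu was 3.07 in vehicle SP and 3.08 in G108 SP (exact permutation p = 1).

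As a set, the 9 genes were all called higher with G108 on SP on TPM, beside 77% of all genes tested that were called higher in that comparison, so that the count is read against a table in which most genes were called. Groups did not overlap for 8 of 9, all but Ido2, against 56% of all genes. The median of the members was 1.18 and that of all genes 0.60. The members were chosen with earlier results of these data known, so comparisons with all genes are given as a description. With scaling 1 member was called, Nnmt, against 1.33% of all genes, and the ranges were apart for Nnmt and Kynu, against 4.52%. The scaled median was 0.42 for the members and -0.01 for all genes, and 8 of 9 members lay above 0, Haao being the exception. Of these, Ido2 (0.025 ± 0.18) and Afmid (0.051 ± 0.18) differed from 0 by less than their standard errors. The share of all genes above 0 is not given here.

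On HP, 0 of 9 members were called by limma on TPM, where 0.819% of all genes were called higher, and 3 had an unadjusted p under 0.05. Ranges were apart and higher for Afmid, Acmsd and Nnmt, against 7.67% of all genes. With scaling 0 members were called (0.642% of all genes), 2 had an unadjusted p under 0.05, and ranges were apart for Afmid, Kynu and Nnmt, against 4.2%. The unadjusted counts have no share of all genes beside them and are not read as particular to the members. Voom on the recovered reads, which used median-of-ratios factors as well, called 0 members on HP, and on SP it called Nnmt alone. The median of the members was 0.26 on TPM and 0.13 with scaling, against 0.09 and -0.004 for all genes.

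**Figure D4:**
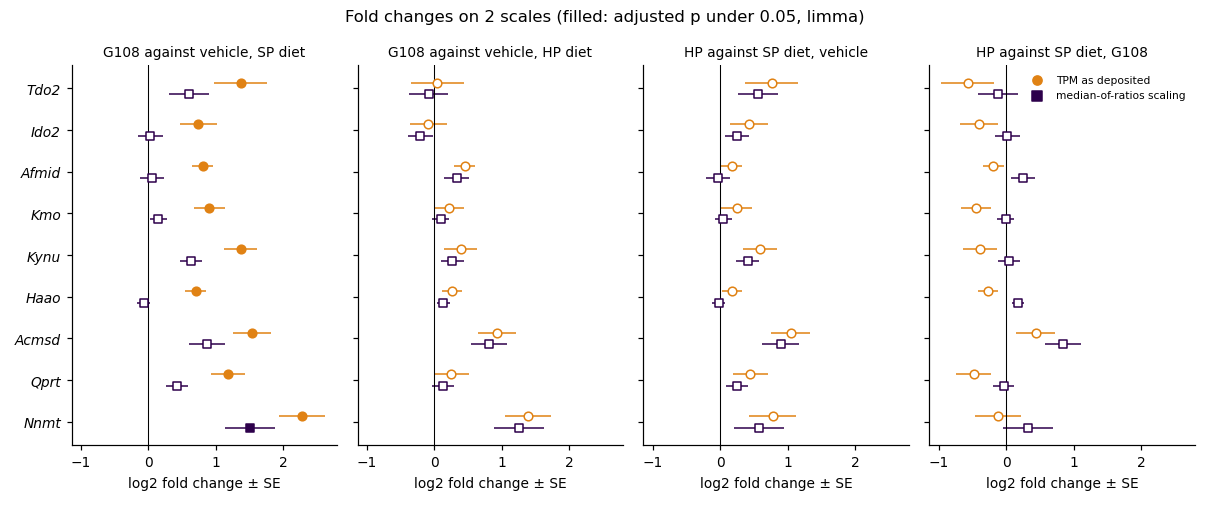
Log2 difference of G108 from vehicle for each of the 9 genes on each diet, with TPM as deposited and with median-of-ratios scaling. Bars are standard errors from limma. On SP all 9 lie above 0 with TPM (0.70 to 2.28), and with scaling Haao turns to -0.071 and Nnmt is at 1.51.

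Protein supplementation gave no calls. For HP against SP with G108, limma called 0 members and 0% of all genes on either scale, with 0 members at an unadjusted p under 0.05 on TPM and 1, Acmsd, with scaling. Scaled ranges were apart and higher on HP for Afmid, Acmsd and Nnmt, against 2.15% of all genes. With vehicle, 0 members and 0% of all genes were called, 3 members had an unadjusted p under 0.05 on TPM (Acmsd, Kynu and Nnmt) and 2 with scaling (Acmsd and Kynu), and on TPM Kynu alone had ranges apart, against 1.33% of all genes. The difference of Kynu there was 0.58 ± 0.25 and with scaling 0.40 ± 0.17. The unadjusted counts in these diet comparisons have no share of all genes beside them, and are given as a description. Voom called 0 members in both diet comparisons.

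Whether the response to G108 differed between the diets was tested by the interaction, which called 0 members and 0% of all genes on both scales. On TPM the estimates were negative for all 9 members. The largest in size were Tdo2 at -1.33 ± 0.55 (adjusted p = 0.0851), Kynu at -0.98 ± 0.35 (adjusted p = 0.0799) and Qprt at -0.93 ± 0.36 (adjusted p = 0.0806). An unadjusted p under 0.05 was found for 4 members, as for 5685 of all genes tested. With scaling Tdo2, Kynu and Qprt were at -0.68 ± 0.42, -0.36 ± 0.24 and -0.29 ± 0.23, 2 of 9 members lay above 0, and 0 members had an unadjusted p under 0.05. The median interaction of all genes on TPM was -0.49.

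The order of the group means on TPM was G108 SP, G108 HP, vehicle HP, vehicle SP from highest to lowest for 7 genes: Tdo2, Afmid, Kmo, Kynu, Haao, Qprt and Nnmt. Neighbours in that order overlapped except for Afmid and Nnmt between G108 HP and vehicle HP and Kynu between the vehicle groups. Ido2 placed vehicle HP above G108 HP, and Acmsd placed G108 HP first, with all neighbours overlapping. The size factors ran in the order of the 7 genes, with medians (log2) of 0.48, -0.025, -0.16 and -0.35. The share of all genes with that order is not given here, so the count is not read as particular to the members. With scaling Kmo and Qprt kept the order, and Tdo2, Afmid, Kynu, Haao and Nnmt did not. Nnmt was then highest in G108 HP, apart from G108 SP, and Acmsd ran G108 HP, vehicle HP, G108 SP, vehicle SP.

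As shares of the summed TPM of the 9 genes, which do not depend on the scale of a library, Nnmt made up 15.5 ± 8.57% in vehicle SP, 18.4 ± 8.34% in vehicle HP, 28.3 ± 1.41% in G108 SP and 32.6 ± 5.67% in G108 HP. Acmsd made up 0.890 ± 0.336%, 1.498 ± 0.528%, 1.23 ± 0.256% and 2.09 ± 0.0557%. Haao made up 23.9%, 18.8%, 15.8% and 16.2%, and Tdo2 29.6%, 34.8%, 30.1% and 25.8%. Nnmt and Acmsd had their largest mean share in G108 HP, and Haao had its largest in vehicle SP. As the shares of a library have a fixed sum, a higher share of Nnmt lowers those of the other members. The mean of Haao itself was 87.9 TPM in vehicle SP and 142 TPM in G108 SP, and with scaling 109 and 104. The shares were not tested.

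Mice of a group tended to be high or low in many members at once on TPM. Mouse 4 of vehicle SP was the lowest of its group in 8 of 9 genes, mouse 1 of G108 SP in 8, and mouse 3 of G108 HP in 8, while mouse 4 of G108 HP was the highest in 9. The low mice also had the lowest size factor of their group (log2, -0.55, 0.23 and -0.25 in turn), and the high mouse had the highest (0.31). How often other genes ranked these mice in the same way is not given here. The counts are therefore not read as particular to the members. With scaling the counts of these mice, in the order named, were 5, 6, 3 and 5.

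Genes with the most similar scaled pattern over the 16 libraries are given as a description (Pearson r of log2 values, libraries sharing treatment and diet). For Nnmt they were Tat (r = 0.954), Tuba8 (0.953) and Gm43314 (0.949), and for Acmsd Etnppl (0.932), Asl (0.903) and Hpd (0.896). For Kynu they were Mdh2 (0.963) and Gnmt (0.955), for Tdo2 Gm13872 (0.985), Sucla2 (0.980) and Serpina1b (0.972), and for Qprt Phb2 (0.951), D430001F17Rik (0.946) and Gstm7 (0.945). Kmo was nearest to Svip (0.909), Coq5 (0.907) and Car5a (0.900), Haao to Nhp2 (0.913), Phb (0.911) and Mrps15 (0.910), Ido2 to Slc27a5 (0.933), Syap1 (0.933) and Klf12 (0.932), and Afmid, beside Gm20708, to Glt1d1 (0.945) and Tert (0.933).

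Around the 9 genes, other enzymes of tryptophan and kynurenine metabolism were called higher with G108 on SP in 9 of 9 tested on TPM and in 1 of 9 with scaling, where 77% and 1.33% of all genes were. Their median difference was 0.95 on TPM and 0.18 with scaling, beside 0.60 and -0.01 for all genes, against which the lists that follow are also read. The gene called with scaling was Ddc, the aromatic amino acid decarboxylase that makes serotonin and tryptamine, at 3.63 TPM in vehicle SP and 12.8 TPM in G108 SP (1.59 on TPM, 0.94 with scaling, adjusted p = 0.0393, a call made in 6 of 16 fits that left out 1 library). The others named by rule were Kyat3 (1.03 and 0.31), Aldh8a1 (0.95 and 0.18) and Dhtkd1 (0.49 on TPM, turning to -0.23 with scaling). Tph1, which starts serotonin synthesis, was listed at 0 in all libraries. On HP 0 of 9 were called on either scale.

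Of NAD synthesis and salvage genes, 8 of 9 tested were called higher on SP on TPM (77% of all genes) and 0 with scaling, with medians of 0.64 and -0.039. Slc25a51, the carrier that brings NAD into mitochondria, differed by 1.56 on SP (adjusted p = 0.0002) and 0.82 with scaling (adjusted p = 0.104). It was the 1 gene of the list called on HP, where it rose from 14.8 to 34.9 TPM, by 1.20 on TPM (adjusted p = 0.0132) and 1.09 with scaling (adjusted p = 0.0493), calls made in 13 and 5 of 16 fits that left out 1 library. The NAD kinases Nadk (1.09 and 0.33) and Nadk2 (0.96 and 0.23) followed on SP, and Naprt, which uses nicotinic acid, differed by 0.66 on TPM and by -0.10 with scaling.

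Genes of NAD use and the nicotinamide outlet were called in 9 of 10 tested on SP on TPM (77% of all genes) and in 0 with scaling or on HP, with medians on SP of 0.42 and -0.12, below those of all genes. Those named were Pnp (0.94 and 0.25 with scaling), Aox1 (0.45, turning to -0.25), Sirt1 (0.33, turning to -0.19) and Sirt3 (0.58, turning to -0.14). Tryptophan transporters were called in 3 of 3 tested on TPM and 0 with scaling (medians 0.89 and 0.21): Slc16a10 (1.13 and 0.41), Slc3a2 (0.89 and 0.21) and Slc43a1 (0.56 and 0.13). Enzymes of the vitamin B6, flavin and heme cofactors were called in 6 of 7 on TPM and 0 with scaling (medians 0.77 and 0.089), among them Fech (0.77 and 0.09) and Flad1 (0.61, turning to -0.10). Neither transporters nor cofactor enzymes were called on HP.

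Of 7 regulators fixed for the pathway, 6 were called on SP on TPM (77% of all genes) and 1 with scaling (1.33%), with medians of 0.67 and 0.029. The gene called with scaling was Ppargc1a, a coactivator induced by cAMP in fasted liver. It averaged under 1 TPM in both vehicle groups and so passed the filter on low values only through the G108 groups, and its calls are given as a description. It stood at 0.741 TPM in vehicle SP and 3.56 TPM in G108 SP (1.38, adjusted p = 0.0001, and 0.89 with scaling, adjusted p = 0.0027) and at 0.907 TPM in vehicle HP and 2.18 TPM in G108 HP (0.73, adjusted p = 0.0338, and 0.66 with scaling, adjusted p = 0.0337). The scaled call on SP was made in all 16 fits that left out 1 library, and those on HP in 8. Nr3c1, the glucocorticoid receptor, differed by 0.67 on SP on TPM and by 0.03 with scaling. Of the aryl hydrocarbon receptor, for which kynurenine is a ligand, and its targets, 1 of 4 tested was called on SP on TPM, Nqo1 (0.75 and 0.19 with scaling), and 0 on HP, with medians on SP of 0.38 and -0.28.

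Of the cell type lists, hepatocyte markers were called higher on SP in 6 of 7 tested on TPM and 0 with scaling (Serpina1a 1.37 and 0.59, Ahsg 1.16 and 0.38, and Ttr 0.57, turning to -0.21), Kupffer cell and macrophage markers in 0 of 7, endothelial in 2 of 4, stellate cell and fibroblast in 1 of 3 and cholangiocyte in 0 of 1 on TPM, against 77% of all genes. With scaling none of these lists held a call, and the direction turned: 4 of 4 endothelial markers lay below 0 (median -0.28, 3 with an unadjusted p under 0.05), as did 3 of 3 stellate cell and fibroblast markers (median -0.088), the cholangiocyte marker and 5 of 7 Kupffer cell and macrophage markers (median -0.19). Of the hepatocyte markers, 3 of 7 lay above 0 with scaling, and their median of -0.16 was below 0 as well. The scaled sum of 5 endothelial markers was 17.9 to 20.9 in vehicle SP and 14.02 to 15.9 in G108 SP, without overlap. On HP the sums overlapped, at 16.2 to 19.4 in vehicle HP and 15.7 to 20.5 in G108 HP. The shares of all genes that were lower on SP with scaling are not given here. The marker counts are therefore given as a description. The part of these cell types in the differences of the pathway was not tested.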

How the data were processed

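Liver RNA was extracted with TRIzol and sequenced from 16 mice (4 per group, 1 library each). The authors checked reads with FastQC 0.11.8, aligned them to GRCm38 with HISAT2 2.0.5, assigned reads to genes with featureCounts and converted the counts to TPM by exon length. The authors deposited TPM, and DESeq2 1.36.0 stands in the submitters' processing notes for comparisons not used here. Groups came from the sample records.

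The 11839 genes whose TPM averaged 1 or more were fitted on log2(TPM + 1) with limma 3.58.1 in R 4.3.3, with 1 mean per group, an intensity trend and Benjamini-Hochberg adjustment over all genes tested. Calls are at an adjusted p under 0.05. Differences are on the log2(TPM + 1) scale, which understates changes of low genes. The same fit was run on TPM after median-of-ratios scaling (factors from 11591 genes). TPM times exon length fell on whole reads (within 0.02) for 98.9% of 113146 low values, and voom was run on the recovered reads. Its library sizes were set by median-of-ratios factors of those reads, so voom is not independent of the scaling. Depth limits precision by counting error only. Ratios within libraries were tested by two-sided exact permutation. The fit was also tested on data simulated with the means and spreads of the scaled values, with independent noise and no shift of whole libraries. There the SP contrast recovered 84.5% of 200 genes changed by a log2 of 1 among 11839 genes. This does not cover the fits on TPM.

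The 9 members and all gene lists were chosen with earlier results of these data known. Named were the members, up to 4 genes per list and contrast that were called with groups that did not overlap, by scaled difference, 3 genes per member by likeness, and the genes of each ratio, and some results under this rule are not reported here. Alternatives were a pseudocount of 0.1, no filter, a minimum mean of 5, voom, median-of-ratios scaling, TPM without mitochondrial genes, a replicate block by mouse number, only the compared groups, array weights, and each library left out. Combinations of these with scaling, and contrasts averaged over diets or treatments, were added after the data were seen. Nothing says that same-numbered mice were paired, and p-values measure the spread between mice of 1 cohort.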

Additional observations from a re-analysis of the deposited data

Results flagged for a closer look

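Of 60 groups of 4 mice checked (levels of the members and ratios), 4 had 1 mouse far from the others by Dixon's test, where chance gives about 1 in 20. Nnmt was 111 TPM in mouse 1 of vehicle SP, where the others lay between 37.0 and 46.1 TPM. The log2 ratio of Nnmt to Nampt was 4.24 in the same mouse, above 2.39 to 2.60 in the others. Ido2 was 9.53 TPM in mouse 1 of vehicle HP, below 15.1 to 15.3 TPM in the others. Qprt was 52.6 TPM in mouse 1 of G108 SP, below 78.0 to 81.0 TPM in the others.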

How the results depend on the processing

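Members called on SP numbered 9 of 9 on TPM and 1 with median-of-ratios scaling or voom, where Nnmt alone was called by each. Voom used factors of the same kind, so its results are no separate check of the scaling. Averaged over diets, 8 were called on TPM and 3 with scaling or voom. On HP the count of 0 became 3 (Acmsd, Afmid and Nnmt) on TPM without mitochondrial genes (670 of 11802 genes higher) and with array weights (1792 of 11839). Array weights also called 6 members lower for HP against SP with G108 (Haao, Ido2, Kmo, Kynu, Qprt and Tdo2), 1 higher with vehicle (Acmsd), 9 lower in the interaction and 1 higher in the averaged diet contrast (Acmsd), beside 8415, 53, 7183 and 118 of the 11839 genes called in those directions. On scaled values, weights called 4 on SP, 3 on HP, 1 for HP against SP with G108 (Acmsd), 5 in the averaged G108 contrast and 1 in the averaged diet contrast (Acmsd), beside 948, 405, 170, 1097 and 23 of the 11839 genes called higher, and a fit of only the groups compared called 0 on SP. Leaving out 1 library in turn gave 0 to 1 members on HP, 0 to 2 for HP against SP with G108 (2, Kmo and Qprt, without mouse 4 of G108 HP), 0 to 6 in the interaction (6 without mouse 4 of G108 HP), and with scaling 0 to 3 on SP (3 without mouse 1 of vehicle SP) and 0 to 1 on HP. Nnmt was called on HP on TPM without mouse 1 of vehicle SP or of vehicle HP. The shares of all genes called in the voom and leave-out fits are not given here. Counts of members in those fits are therefore not read as particular to the pathway.

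Directions turned for these genes, some of which had been called on SP on TPM. Haao on SP was -0.071 with scaling and -0.069 with voom, and Ido2 was -0.084 with scaling and weights. Tdo2 on HP was -0.085 with scaling, -0.086 with weights, -0.094 with voom and 0.094 with scaling and weights, and Ido2 on HP was 0.070 without mitochondrial genes. Nnmt for HP against SP with G108 was 0.33 with scaling, 0.030 without mitochondrial genes and 0.33 with voom. With scaling and voom in turn, list genes on SP were -0.10 and -0.10 (Naprt), -0.25 and -0.28 (Aox1), -0.19 and -0.29 (Sirt1), -0.14 and -0.15 (Sirt3), -0.21 and -0.21 (Ttr), -0.23 and -0.25 (Dhtkd1) and -0.10 and -0.11 (Flad1). The log2 ratio of Tdo2 to Kynu on SP was -0.059 with a pseudocount of 0.1 and -0.11 to 0.10 with 1 library left out. Other ranges with 1 library left out that crossed 0 were, with scaling on SP, -0.10 to 0.15 (Ido2) and -0.089 to 0.28 (Afmid), on HP -0.24 to 0.30 and scaled -0.27 to 0.093 (Tdo2) and -0.31 to 0.091 (Ido2), and in the scaled interaction -0.32 to 0.16 (Acmsd) and -0.68 to 0.047 (Nnmt). The cause was not tested.

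Mouse numbers did not pair the samples (correlations of same-numbered deviations from -0.43 to 0.44). With the mouse number as a replicate block, 9 members were called on SP on TPM and 0 with scaling (Nnmt adjusted p = 0.0529), 0 on HP, and averaged over diets 7 on TPM and 2 with scaling, and calls among all genes on HP went from 132 to 71. For the other block fits the shares of all genes are not given here, so those counts are not read as particular to the members. With 4 mice per group, the standard error of a G108 difference on TPM ran from 0.15 (Haao) to 0.39 (Tdo2), and Acmsd rests on the fewest reads.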
